A study of Mus musculus with 2 samples.

Results

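Mir6236 and Gm23935 are 2 genes annotated as miRNA hairpins whose counts set apart 2 small RNA libraries of mouse neural tube. They were taken by gene identifier (ENSMUSG00000098973.1 and ENSMUSG00000076258.1) from the 1973 miRNA genes of the deposited count tables, and both have a row in each library. They were picked because earlier results on these libraries showed them higher in replicate 1, so that difference is described here and not tested. The neural tube, from which brain and spinal cord form, came from B6NCrl mouse embryos of mixed sex at embryonic day 11.5. All samples belong to 1 group of 2 biological replicates with no genetic change or treatment named: replicate 1 pooled the neural tubes of 109 embryos and replicate 2 those of 88. Whole tubes were pooled, so the cell types within them are not separated, and fewer cells of a type cannot be told apart from less RNA per cell. RNA shorter than 30 nt was sequenced.

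A miRNA is normally cut from a hairpin by the enzymes Drosha and Dicer and then guides an Argonaute protein to mRNAs that match its seed, a short stretch near its 5′ end. Databases also hold hairpins predicted from sequence or from a few reads, and some of these have been doubted because fragments of longer, abundant RNAs can fall on them. A doubted entry typically folds poorly, has 1 read product in place of a pair of arms, or sits in several near-identical copies. Folding and copies were looked up for both genes, and mature entries where the table held the gene.

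The RefSeq table of mouse miRNAs (build GRCm38.p6) held 1 of the 2 genes, Mir6236, with a single mature sequence, mmu-miR-6236. It is shown because it is the product the annotation assigns to the gene, with the seed (bases 2 to 8) in capitals, above the mature sequence of Mir6240, another hairpin that comes up below.

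mmu-miR-6236: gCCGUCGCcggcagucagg

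mmu-miR-6240: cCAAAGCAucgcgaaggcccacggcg

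Both are read from the plus strand, that of Mir6236 at chr9:110281353-110281371 and that of Mir6240 at chr5:114851973-114851998. The Mir6236 product is 19 nt long with a GC content of 78.9%. Among the 1738 mature sequences of the table, whose median is 22 nt and 52.2% GC, 52 were no longer and 20, this one included, had at least as much GC. No other mature sequence in the table carried the seed CCGUCGC, and no other GENCODE M21 transcript held the 19 nt on either strand. Of the 916 genes of the count tables with an entry, 333 (36.4%) likewise had a single mature sequence, so this alone does not set Mir6236 apart.

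The Mir6236 gene spans chr9:110281287-110281409 (plus strand, GRCm38, also called mm10) and overlaps no other annotated gene. The nearest one, the long noncoding RNA gene Gm42775, lies 7.54 kb away, and the nearest miRNA gene, Mir8107, 0.355 Mb away. Gm23935 spans chr16:11144125-11144181 (plus strand), inside an intron of Zc3h7a, which codes for a zinc finger protein and runs on the opposite strand. Its nearest miRNA gene, Mir1945, is 0.110 Mb away. Neither gene therefore sits in a miRNA cluster, and 0 other miRNA genes lay within 20 kb of either. Neither overlapped an annotated gene for ribosomal, small nuclear, small nucleolar or other structural RNA, nor shared a run of 20 nt with one. The full large-subunit ribosomal RNA and the transfer RNA genes of the nucleus were not among the sequences searched.

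Sequence sharing differed between the 2 genes. For Mir6236, 17 other annotated genes held a stretch of 20 nt or more in common with it, but 0 of them were miRNA genes. All the shared runs fell within bases 82 to 106 of its 123. Gm23935 had such a stretch in common with 5 other genes, all annotated as miRNA hairpins, and with nothing else in the annotation. Its 57 nt are identical to those of Gm24245 on chromosome 4 and Gm24270 on chromosome 9, an intron of Peak1. Gm24187 on chromosome 13 differs by the single substitution G11A, counted from 1 at the 5′ end of Gm23935. Gm23388 on chromosome 8, in an intron of Zfp791, differs by G2T, C16G, G21T and G48T. Gm25911 on chromosome 1 is 56 nt long and lies 2 edits away.

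Mir6236 held 935 own-strand reads in replicate 1 and 270 in replicate 2. As a share of all own-strand reads on miRNA genes, scaled to 1000000 (CPM), this was 252 CPM (95% Wilson interval 236 to 269) and 66.6 CPM (59.1 to 75.0). Gm23935 held 923 and 321 reads, or 249 CPM (233 to 265) and 79.1 CPM (70.9 to 88.3). Both genes were thus higher in replicate 1 than in replicate 2, and for each gene the intervals of the libraries, which cover counting error only, do not overlap. The mean over both libraries was 159 ± 131 CPM (SD, n = 2) for Mir6236 and 164 ± 120 CPM for Gm23935.

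The 2 genes stayed close to each other within a library. Mir6236 counts were 1.01 times those of Gm23935 in replicate 1 and 0.841 times in replicate 2. Together they took 0.0501% of own-strand reads in replicate 1 and 0.0146% in replicate 2, so both are minor constituents of the libraries. Mir6236 stood at place 157 of the 657 genes with a read in replicate 1 and at place 222 of 650 in replicate 2, and Gm23935 at places 158 and 206. By mean CPM, the genes next above Gm23935 were Mir3074-1 and the differentiation-associated Mirlet7b, and those next below Mir6236 were Mir410 and Mir493 of the imprinted Dlk1-Dio3 cluster. Mir384 stood between the pair, with 179 CPM in replicate 1 and 143 CPM in replicate 2 (1.25-fold). Of the other neighbours, Mir493 was 2.12-fold, Mir410 1.59-fold and Mirlet7b 1.44-fold higher in replicate 1, and Mir3074-1 was lower (0.829). The pair was chosen for its difference, so these smaller ratios say nothing further about it. With the spread of the pair over n = 2, neither gene can be ordered against the other or against these neighbours.

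**Figure D1:**
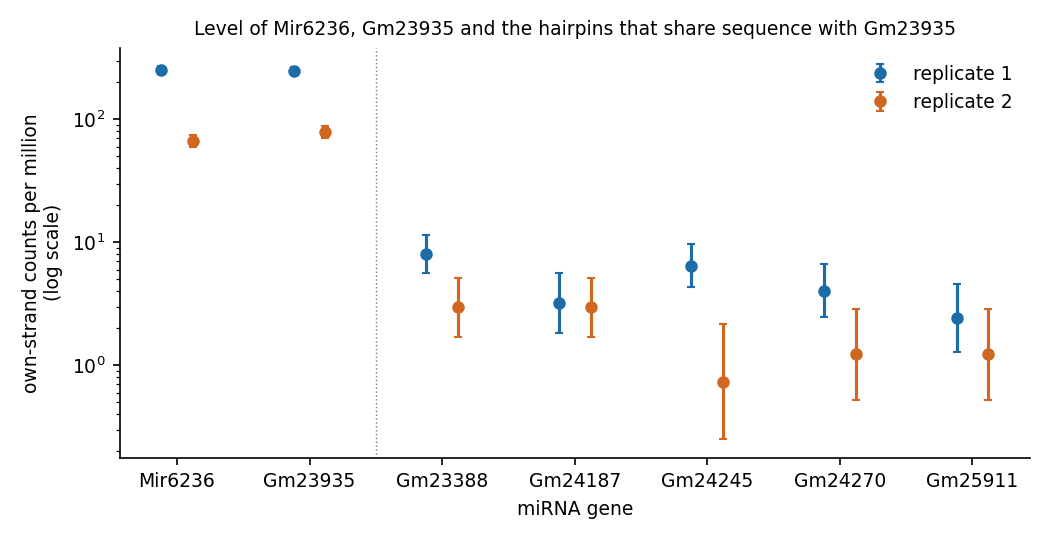
Own-strand CPM (log scale) in each library for Mir6236, Gm23935 and the 5 hairpins that share at least 20 nt with Gm23935, where bars are 95% Wilson intervals for counting error. Both genes lie at 249 CPM or more in replicate 1 and at 79.1 CPM or less in replicate 2, and the related hairpins at 8.09 CPM or less in both.

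Identical hairpins did not hold identical counts. Gm24245 had 24 reads in replicate 1 and 3 in replicate 2, and Gm24270 had 15 and 5, against 923 and 321 for Gm23935 with the same 57 nt. Gm23935 exceeded Gm24245 by 38.5 and 107 times in the 2 libraries and Gm24270 by 61.5 and 64.2 times. The near-identical hairpins were as low, with 30 and 12 reads for Gm23388, 12 and 12 for Gm24187 and 9 and 5 for Gm25911. Gm23935 held 91.1% (95% Wilson interval 89.2 to 92.7) of the reads of all 6 hairpins in replicate 1 and 89.7% (86.1 to 92.4) in replicate 2, so its portion was the same within counting error in both. Reads mapped to several places are kept in a separate row of the tables and counted for no gene. A read lying wholly inside the shared 57 nt matches 3 annotated hairpins. The gene counts cover only reads that were placed at 1 of them, and how they were placed was not analysed here. The ratios and portions above therefore do not measure how much RNA each copy yields.

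The related hairpins leaned the same way as Gm23935, as did 329 of the 444 genes with at least 10 summed reads (median ratio 1.20). Summed over the 5, they held 90 reads in replicate 1 and 37 in replicate 2, or 24.3 and 9.12 CPM, a ratio of 2.66 (95% interval 1.80 to 4.01, counting error only). Singly, the ratio was 7.66 for Gm24245, 3.08 for Gm24270, 2.67 for Gm23388, 1.89 for Gm25911 and 1.09 for Gm24187. Since Gm24245 held 3 reads in replicate 2, its interval ran from 2.66 to 45.4, and those of Gm25911 and Gm24187 included 1. Gm24187 held 12 reads in each library, so its ratio came from the library totals alone. These hairpins share sequence with Gm23935, and how reads were placed among them was not analysed, so they are no separate evidence beside Gm23935.

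Between the libraries, Mir6236 was 3.78-fold higher in replicate 1 (95% interval from counting error 3.30 to 4.35) and Gm23935 3.14-fold (2.77 to 3.58). For the ratios, though not their intervals, 0.5 counts were added to each value. On the log2 scale these ratios were 1.92 and 1.65. Of the 444 genes with at least 10 reads summed over both libraries, 36 (8.11%) reached 2-fold toward replicate 1 and 5 (1.13%) toward replicate 2. After TMM scaling these were 22 (4.95%) and 15 (3.38%), and after DESeq2 scaling 23 (5.18%) and 15 (3.38%). Since this contrast chose both genes, their place among the 36 says nothing further about them. The median of the 444 genes was itself 0.27 on the log2 scale toward replicate 1. Among the 272 genes with a mean of at least 100 reads, 5 (1.84%) reached 2-fold toward replicate 1 and 1 (0.368%) toward replicate 2.

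Apart from Mir6236 and Gm23935, the genes past 2-fold toward replicate 1 among those 272 were Mir449a of multiciliated cells (2.14-fold), Mir493 (2.12-fold) and Mir483 in the growth factor gene Igf2 (2.08-fold). Just outside the 2-fold threshold lay the X-linked Mir351 (1.98-fold) and Mir539 (1.88-fold) of the Dlk1-Dio3 cluster. Among the genes with a mean of at least 100 reads, these 5 were the nearest in ratio to both members over the 2 libraries, and Mir449a was 0.55 below Gm23935 and 0.82 below Mir6236 on the log2 scale.

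**Figure D2:**
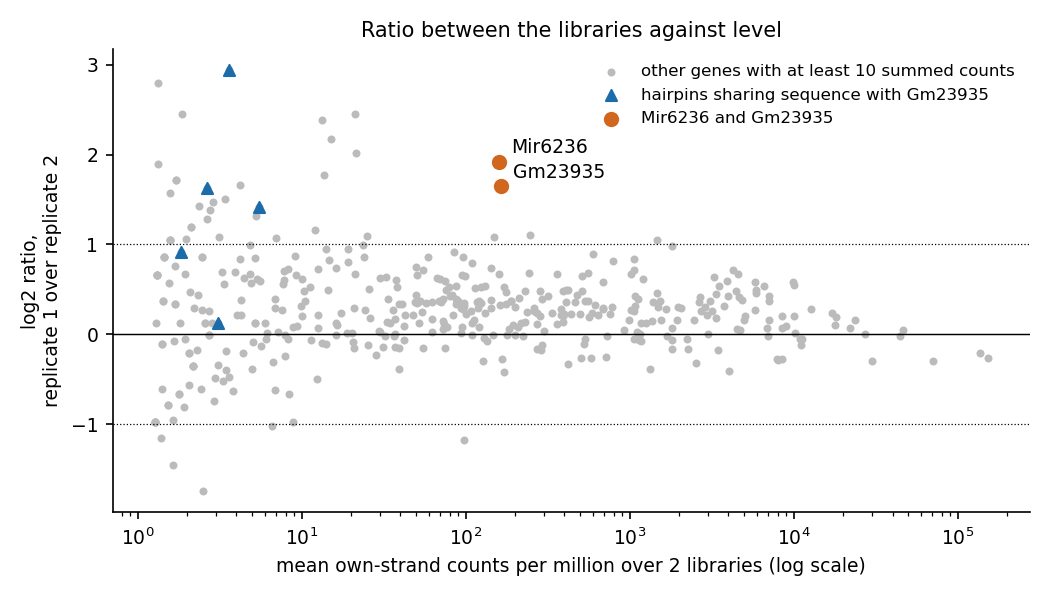
Log2 ratio of replicate 1 over replicate 2 against mean own-strand CPM (log scale) for 444 genes with at least 10 summed reads, with dotted lines at 2-fold. Mir6236 and Gm23935 lie at 1.92 and 1.65, by the contrast that chose them, and the 5 related hairpins lie at low level between 0.13 and 2.94.

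Below that mean, some genes had ratios as large, and they are named here after their values were seen. Mir6240, the entry in the annotation nearest in number to Mir6236 that had any reads, held 132 and 26 reads (5.47-fold). Its numerical neighbours Mir6237, Mir6238, Mir6239, Mir6241 and Mir6244 held 0 reads in both libraries. Mir5126 held 83 and 17 reads (5.22-fold), Gm26117 92 and 22 (4.50-fold) and Mir6538 127 and 34 (4.04-fold). Mir7j held 79 and 25 reads (3.41-fold). The other genes with a ratio above that of Gm23935 held 8 to 24 reads in replicate 1, among them Mir291b with 10 and 3.

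Predicted entries with a symbol beginning with Gm made up 843 of the 1973 genes, and 13 of them had at least 10 summed reads. Of these, 10 were higher in replicate 1, 7 of them at least 2-fold, with a median log2 ratio of 1.05. Of all 444 genes, 329 were higher in replicate 1, 36 of them at least 2-fold, with a median of 0.27. Without Gm23935 and its 5 relatives, 7 were left, 4 of which were higher in replicate 1, 3 at least 2-fold. Their median was 0.84. These 7 held few reads, a median of 32 summed over both libraries (11 to 114) beside 577.5 for all 444, so counting error in their ratios is larger. Of the genes that shared 20 nt with a structural RNA, 196 in all, a single one, Mir1934, reached 10 summed reads, with 11 and 5. Mir712 and Mir715, miRNAs known from the precursor of ribosomal RNA, had no row used here.

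The fold of both hairpins was computed with RNAfold, which gives the minimum free energy of an RNA. Mir6236 reached -45.4 kcal/mol, or -36.9 kcal/mol per 100 nt, and Gm23935 -22.5 kcal/mol, or -39.5 kcal/mol per 100 nt. The median of the 444 tested hairpins was -43.4 kcal/mol per 100 nt (quartiles -48.9 and -38.7) and that of 8 abundant canonical hairpins such as Mir10a, Mir17 and Mirlet7g was -39.7 kcal/mol per 100 nt (range -49.6 to -30.9). Per length, 75 of the 444 hairpins folded more weakly than Mir6236 and 127 more weakly than Gm23935, and both genes lay inside the canonical range. In the computed fold 58.5% of Mir6236 bases were paired, and 14 of the 444 hairpins had fewer. Gm23935 had 63.2% paired and 46 below it, and its fold was split over 2 hairpin loops, where the median hairpin had 1. The paired share of the 8 canonical hairpins ran from 61.8% to 79.5%.

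In size the pair stood at opposite ends. Mir6236 has 123 nt, with 6 of the 444 hairpins longer, while Gm23935 has 57 nt, with 431 longer, around a median of 83.5 nt. The GC content of Gm23935 was 73.7%, exceeded by 9 hairpins, and that of Mir6236 was 56.1%, exceeded by 131, around a median of 51.5%. Mir6236 carries a run of 5 G, and 8 hairpins held a longer one. In its computed fold, the mature product occupies bases 67 to 85 and 14 of its 19 bases are paired, none of them within the product itself. The annotated product therefore lies on 1 arm of the computed hairpin. The reads were counted per gene, so whether they came from this product was not analysed here.

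**Figure D3:**
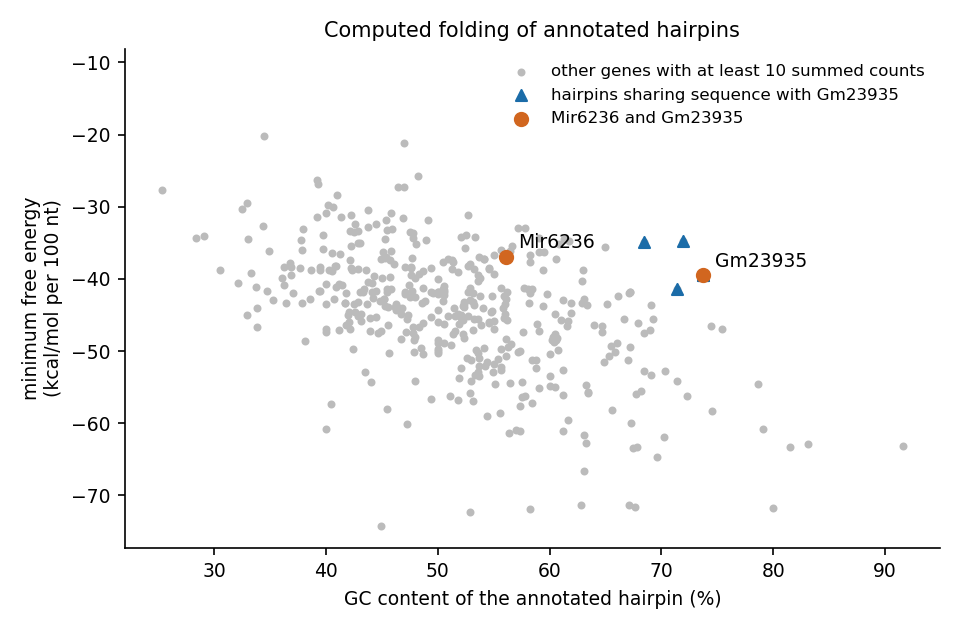
Minimum free energy per 100 nt against GC content for the annotated hairpins of 444 genes with at least 10 summed reads. Mir6236 (56.1% GC, -36.9 kcal/mol per 100 nt) lies on the weakly folded side of the cloud, and Gm23935 (73.7% GC, -39.5) lies at its GC-rich edge beside its relatives.

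Across these 444 genes, GC content and the ratio between the libraries were nearly unrelated in rank (Spearman's rho 0.03, Pearson's r 0.14, a description across genes that share 2 libraries). The 18 hairpins with 70% GC or more had a median log2 ratio of 1.06, and 9 of them were at least 2-fold higher in replicate 1, beside 0.27 and 36 for all 444. Without the 5 of them that belong to the Gm23935 group, 13 were left with a median of 0.68, and 6 were at least 2-fold higher. With at least 100 summed reads as well, 6 were left with a median of 1.35, 3 of them at least 2-fold higher, beside 0.26 and 11 for the 301 genes at that depth. This limit on GC was set after the values were seen.

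Neither gene had a read on its opposite strand, 0 of 935 and 0 of 270 for Mir6236 and 0 of 923 and 0 of 321 for Gm23935. Such strandedness is usual in these tables: 392 of the 444 genes (88.3%) had no opposite-strand read, as did 30 of the 34 genes with 1000 to 2000 summed reads.

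Of the rows of reads that named no gene, the unmapped reads and the reads on no gene were larger in replicate 1, as the pair was, and the reads mapped to several places were smaller. Unmapped reads were 24.5% of all 8530505 reads in replicate 1 and 15.2% of 7655421 in replicate 2, a share 1.60 times as large in replicate 1. Reads that mapped but lay on no miRNA gene in its own direction came to 6.83% and 4.49%, 1.52 times as large. Reads mapped to several places were 25.2% and 27.3%, 0.925 times as large, and own-strand reads on miRNA genes were 43.5% and 53.0%, 0.821 times as large. Replicate 1 thus held a larger share of reads not assigned to a miRNA gene on its own strand than replicate 2. The part of this difference in the counts of Mir6236 and Gm23935 was not tested.

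Set against these rows, both genes remained higher in replicate 1 by a smaller factor. Per 1000 mapped reads on no gene, Mir6236 had 1.60 reads in replicate 1 and 0.785 in replicate 2, a ratio of 2.04, and Gm23935 had 1.58 and 0.933, a ratio of 1.70. Per 1000 unmapped reads, Mir6236 had 0.448 and 0.231, a ratio of 1.94, and Gm23935 0.443 and 0.275, a ratio of 1.61. Per 1000000 of all reads, Mir6236 had 109.6 and 35.3, a ratio of 3.10, and Gm23935 108 and 41.9, a ratio of 2.58. The difference between the libraries was therefore smallest beside the unmapped reads and largest beside the reads on miRNA genes. This order follows from the denominators, which change the ratio of every gene by the same factor. Unmapped reads and reads on no gene were chosen as denominators after the data were seen.

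**Figure D4:**
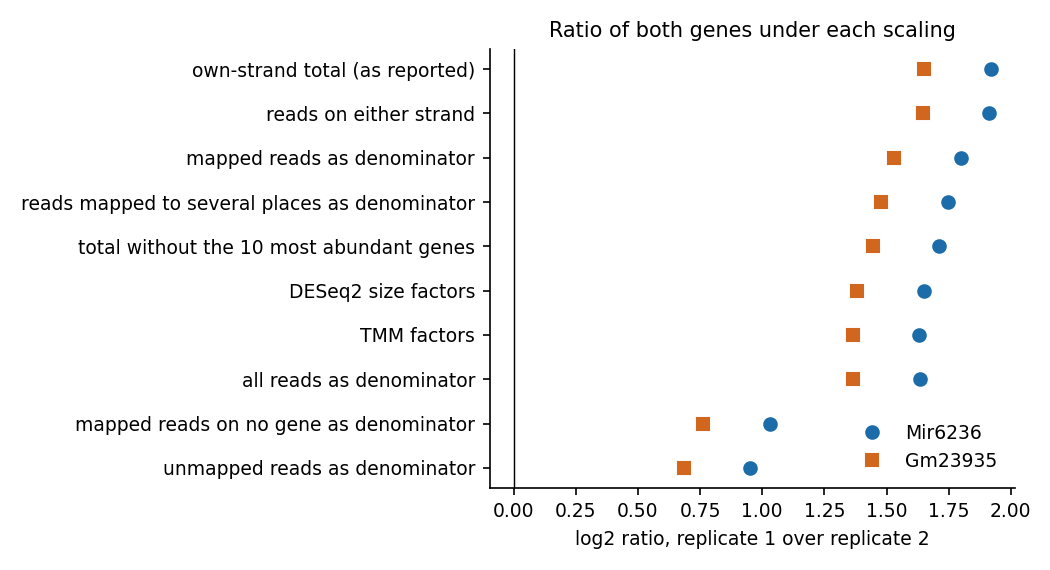
Log2 ratio of replicate 1 over replicate 2 for Mir6236 and Gm23935 under 10 scalings, one per line. All points lie right of 0, from 0.68 for Gm23935 against unmapped reads to 1.92 for Mir6236 against the own-strand total.

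Markers of other cell types that a dissected neural tube can hold were compared as sums in CPM, replicate 1 first. Skeletal muscle genes (3 of 4 with a row, all detected) held 1398 and 793 CPM, erythroid genes (2 of 2) 520 and 368, the leukocyte gene Mir223 (1 of 2 with a row) 266 and 191, mesenchymal genes (3 of 3) 23696 and 17411, endothelial Mir126a 24945 and 22302 and the liver gene Mir122 7.82 and 7.89. Neural genes (8 of 9 with a row, all detected) held 8501 and 7385 CPM. The ratios ran from 0.991 for liver to 1.76 for skeletal muscle, beside a median of 1.20 over the 444 genes. The skeletal muscle sum lay mostly in Mir206 (mean 1060 CPM, log2 ratio 0.84). Mir133b, with a mean of 36.2 CPM, had a log2 ratio of 0.27, equal to the median of the 444 genes (0.27). No marker with a row was at 0. Mir9-1, Mir142 and Mir1a-2 of these lists had no row used here. Whether any of them takes part in the difference of the pair was not tested.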

How the data were processed

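The authors deposited raw counts of reads for each miRNA gene, on mm10 with GENCODE M4 per the file headers. Names of the aligner and counter are not given in these sources. The 3 unnamed columns were read as either, own and opposite strand, since the first equals the sum of the others for each gene, and own-strand counts were used. The number of per-sample columns not tied to a sample was 0. Rows that name no gene (56.5% and 47.0% of reads, computed on the own strand) stayed out of totals. Totals were 3708662 and 4055883. Symbols, coordinates and hairpins came from GENCODE M21 (1894 of 1973 genes matched by identifier). No test was run, because there is 1 group and the contrast chose the genes. Ratios of single genes between the libraries carry 0.5 counts. Ratios of sums, of 1 gene to another and of read shares, and all intervals, carry none. Wilson and exact binomial 95% intervals take each read as independent and so show counting error alone, as no molecular identifiers are stated. Members and lists were chosen with earlier results of these data known. Named genes were both members, hairpins sharing 20 nt with them, miRNA genes within 20 kb, up to 10 genes related to structural RNA, the 5 genes nearest in ratio with a mean of 100 counts and the 2 genes above and below in level. Of the structural list, 2 genes had any count (Mir1934 and Mir5098). The computation of ratios was checked on simulated counts with known changes. Scaling alternatives used edgeR 4.0.16 and DESeq2 1.42.0 (R 4.3.3). Other tools were Python 3.11.15, pandas 2.3.3, scipy 1.17.1 and RNAfold 2.7.2.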

Additional observations from a re-analysis of the deposited data

How the results depend on the processing

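Both ratios kept their direction under all 10 other scalings and settings each. As this contrast chose both genes, the kept direction is no further support for the difference. On the log2 scale, Mir6236 (1.92) moved beyond its counting interval to 1.63 with TMM factors, 1.65 with DESeq2 size factors, 1.63 per all reads, 1.71 without the 10 most abundant genes, 1.03 per mapped reads on no gene and 0.95 per unmapped reads. Gm23935 (1.65) moved to 1.36, 1.38, 1.37, 1.44, 0.76 and 0.68. The denominators of reads on no gene, unmapped reads and reads mapped to several places were chosen after seeing the data. TMM and DESeq2 factors moved every ratio by -0.29 and -0.27. Of 444 genes, the 36 at least 2-fold higher in replicate 1 became 22 with TMM, 23 with DESeq2 and 24 with a pseudocount of 5. They were 11 of 301 genes with at least 100 summed counts and 137 of 724 with at least 1. In the same order, the 5 higher in replicate 2 became 15, 15, 2, 1 of 301 and 83 of 724. Without reads mapped to several places, the mean unmapped share rose from 19.8% to 26.8% and that of reads on no gene from 5.66% to 7.66%. With 1 library left out, the level was 66.6 to 252 CPM for Mir6236 and 79.1 to 249 CPM for Gm23935, the unmapped share 15.2% to 24.5% and the share on no gene 4.49% to 6.83%, and no ratio exists. No paired analysis was possible because there is 1 group. With 2 libraries, levels are known only to within this range.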
